A study of Mus musculus with 24 samples.

Results

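The mitochondrial genome encodes 37 RNAs, and all of them were present among the 54235 features of the deposited matrices, where their symbols start with mt-. They comprised 13 messenger RNAs, 2 ribosomal RNAs and 22 tRNAs, and all 37 lay on chromosome M of GRCm38 in the GENCODE M21 annotation. Over all barcodes they took 12884605 of 481621602 UMIs (unique molecular identifiers, which mark captured molecules), a share of 2.68%. Their UMIs were followed as a share of the UMIs of each cell class, region and library, in 103973 barcodes with at least 1000 UMIs and 500 genes (passing) and in 23928 barcodes under that filter.

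The cells came from primary motor cortex of Fos-CreER::Ai9 mice and from dorsal striatum of Arc-CreER::Ai9 mice, so that region and driver line cannot be told apart. In each region 2 pools of mice learned to reach with a forelimb over 2 days (early), 2 pools over 8 days (late), and 2 control pools were not trained. All mice, controls included, received 4-hydroxytamoxifen, which lets the activity-dependent Cre recombine the Ai9 reporter, and tissue was taken 3 days after labelling. Each library held 1 hemisphere from 2 mice, and replicates are pools of mice (12 pools, 24 libraries). Counts of 1 library, the right side of striatal control 1, were not analysed here, so 23 libraries were used.

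Mitochondrial DNA is transcribed from both strands as long precursors, from which tRNAs are cut out so that the rRNAs and mRNAs between them are released. The mRNAs encode subunits of the respiratory chain: 7 of complex I (NADH dehydrogenase), 1 of complex III, 3 of complex IV (cytochrome c oxidase) and 2 of complex V (ATP synthase). All other subunits come from nuclear genes. Mitochondrial mRNAs carry short poly(A) tails, which is why oligo-dT libraries capture them, and a high mitochondrial share is widely used to mark damaged cells.

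The number of UMIs per transcript differed by orders of magnitude, and the sequences of the transcript ends are shown because several of them also occur in nuclear transcripts, which bears on how their reads can be counted. In the 9 sequences below, which are the last 60 bases of the transcripts on the plus strand of chromosome M (GRCm38, from the GENCODE M21 transcripts), capitals mark bases inside a stretch of 50 bases that recurs exactly in a transcript of a nuclear gene.
mt-Co3, chrM:9331-9390: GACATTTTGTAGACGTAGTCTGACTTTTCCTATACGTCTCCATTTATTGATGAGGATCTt
mt-Co2, chrM:7637-7696: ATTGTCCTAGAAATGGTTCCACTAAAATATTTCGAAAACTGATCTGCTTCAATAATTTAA
mt-Atp6, chrM:8548-8607: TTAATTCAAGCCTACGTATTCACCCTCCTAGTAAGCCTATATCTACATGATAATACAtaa
mt-Co1, chrM:6813-6872: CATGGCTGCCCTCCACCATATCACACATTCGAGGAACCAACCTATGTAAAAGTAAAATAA
mt-Nd3, chrM:9747-9806: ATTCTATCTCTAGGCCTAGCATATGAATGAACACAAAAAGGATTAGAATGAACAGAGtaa
mt-Nd2, chrM:4892-4951: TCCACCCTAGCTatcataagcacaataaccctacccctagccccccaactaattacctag
mt-Cytb, chrM:15229-15288: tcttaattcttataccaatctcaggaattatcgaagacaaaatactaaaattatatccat
mt-Nd4, chrM:11485-11544: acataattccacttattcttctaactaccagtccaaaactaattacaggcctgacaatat
mt-Nd1, chrM:3648-3707: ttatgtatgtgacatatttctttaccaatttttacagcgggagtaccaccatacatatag

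The first 5 of these ends were almost wholly in capitals, and the ends of mt-Cytb, mt-Nd4 and mt-Nd1 held none. Over the last 500 bases (or the whole of a shorter transcript), 6 of the 13 mRNAs had at least 90% of their 50-base words repeated in a nuclear transcript: mt-Co1, mt-Co2, mt-Atp6, mt-Co3, mt-Nd3 and mt-Nd4l. These 6 held 6.07% of the mitochondrial mRNA UMIs of passing cells, and the other 7 mRNAs held 93.9%. Most of the repeats lay in 1 block of annotated pseudogenes on the minus strand of chromosome 1. Gm28661 at chr1:24614885-24615565 matched mt-Co2 over 681 of 681 bases, Gm28437 at chr1:24613189-24613971 matched mt-Co3 over 783 of 783, and Gm10925 at chr1:24613974-24614651 matched mt-Atp6 over its first 678 bases without a mismatch. Gm28438 at chr1:24612775-24613119 differed from mt-Nd3 over 345 bases by T3C alone (the mitochondrial base, its position from the start of mt-Nd3, and the pseudogene's base). The position is in capitals in the start of mt-Nd3.
mt-Nd3, chrM:9459-9498: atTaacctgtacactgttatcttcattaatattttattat

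These pseudogenes themselves held few UMIs: 12 for Gm28661, 11 for Gm28437, 23 for Gm10925 and 169 for Gm28438 over all barcodes. A second block on chromosome 2 was less alike and better counted, with 3331 UMIs for Gm13340, which matched mt-Co1 at 97.6% of 1545 bases. How the authors' software treated reads that match both places is not given in the sources used here, so the counts of the 6 mRNAs are uncertain, and the part of these repeats in their low levels was not tested. Only annotated transcripts were searched. The counts of mt-Atp8 and mt-Atp6, of mt-Nd4l and mt-Nd4, and of mt-Nd5 and mt-Nd6 (on opposite strands) are also uncertain where the genes overlap.

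In passing cells mt-Rnr2, the RNA of the large mitochondrial ribosomal subunit, held 27.3% of mitochondrial UMIs, and mt-Rnr1, that of the small subunit, held 6.48%. Among the mRNAs, mt-Cytb, the complex III subunit cytochrome b, held 21.4%. The complex I mRNAs mt-Nd4, mt-Nd1 and mt-Nd2 held 13.3%, 13.1% and 12.0%. Divided by transcript length, the order was mt-Cytb (2288 UMIs per base), mt-Rnr2 (2109), mt-Nd1 (1669), mt-Nd2 (1413), mt-Nd4 (1181) and mt-Rnr1 (830). The next transcripts per base were mt-Nd3 (275), mt-Atp8 (182), mt-Atp6 (177), mt-Co1 (164), the catalytic core of complex IV, and mt-Nd5 (136). The lowest were mt-Nd6 (25.7), the mRNA read from the other strand, mt-Co3 (17.5), mt-Co2 (9.89) and mt-Nd4l (5.44). The 6 mRNAs with repeated ends thus lay between 5.44 and 275 UMIs per base, and the other 7 between 25.7 and 2288. A 3' library counts molecules and not fragments, so division by length is only a common scale.

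The tRNAs were close to the limit of detection. All 22 together had 561 UMIs over all barcodes, and 9 of them had none. The best counted were the tRNAs for glutamine (mt-Tq, 201 UMIs), methionine (mt-Tm, 98), leucine (mt-Tl1, 74), aspartate (mt-Td, 50) and asparagine (mt-Tn, 44), and the remaining 17 had between 0 and 26. Few tRNAs passed the filter on low counts, in 1 class of each region and in the comparison of barcodes below the filter with passing ones. In that edgeR fit mt-Tq had a log2 difference of 0.82 (SE 0.53, adjusted p = 0.19) and mt-Tm of -0.07 (SE 0.86, adjusted p = 0.96).

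Libraries held 5260446 to 30470621 UMIs and 469 to 7093 passing barcodes, with medians of 2048 to 5678 UMIs, and at most 129 barcodes were shared by 2 libraries. The labels name 6 flow cells as batches. From the rate at which libraries share barcodes, the flow cells fell into 2 barcode classes that match separate barcode lists: class A (HVYK3BBXX with motor cortex control 1 and late 1, and H2GGFBBXY with dorsal striatum control 1 and late 1) and class B (the 4 flow cells of the other 8 pools). The labels name kit version 2 or 3 without saying which library had which, and kit and flow cell cannot be told apart. Both early pools of each region are in class B. Class A libraries shared 1.34 barcodes per 1e6 pairs, class B libraries 0.263, and libraries of different classes 0.0236.

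The total mitochondrial share of passing barcodes was low in all 4 class A pools and higher in all 8 class B pools. In motor cortex it was 1.31% in control 1 and 1.69% in late 1 (class A), and 2.20% in control 2, 2.59% in early 1, 3.17% in early 2 and 3.04% in late 2 (class B). In dorsal striatum it was 1.40% in control 1 and 1.52% in late 1 (class A), and 3.38%, 3.81%, 3.78% and 3.25% in control 2, early 1, early 2 and late 2. The barcode classes did not overlap in either region. Such separation was common among single features within the cell classes described below. There all class B pools lay above all class A pools for 28% of features by class in motor cortex and 32.8% in dorsal striatum.

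The rRNA share was also lower in every class A pool than in every class B pool of its region. In motor cortex the rRNAs took 0.086% and 0.099% of UMIs in the class A pools and 0.302%, 0.827%, 1.23% and 1.38% in the class B pools, in the same order. In dorsal striatum they took 0.148% and 0.114% in class A and 1.15%, 1.66%, 2.14% and 1.40% in class B. The mRNAs together took 1.22% and 1.59% against 1.90%, 1.76%, 1.94% and 1.66% in motor cortex, and 1.2% and 1.41% against 2.23%, 2.15%, 1.64% and 1.85% in dorsal striatum. By fold, class B over class A was 2.98 for the rRNA share and 1.17 for the mRNA share between the control pools of motor cortex, and 17.3 and 0.947 between the late pools. In dorsal striatum these folds were 7.44 and 1.64 between the control pools and 12.2 and 1.19 between the late pools (medians over cell classes). In percentage points the mRNA share differed by more than the rRNA share between the control pools of motor cortex. Without the rRNAs, the mitochondrial share of class B over class A fell from 1.67-fold to 1.06-fold in motor cortex and from 2.32-fold to 1.39-fold in dorsal striatum (control and late pools, geometric mean of both, median over cell classes).

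**Figure D1:**
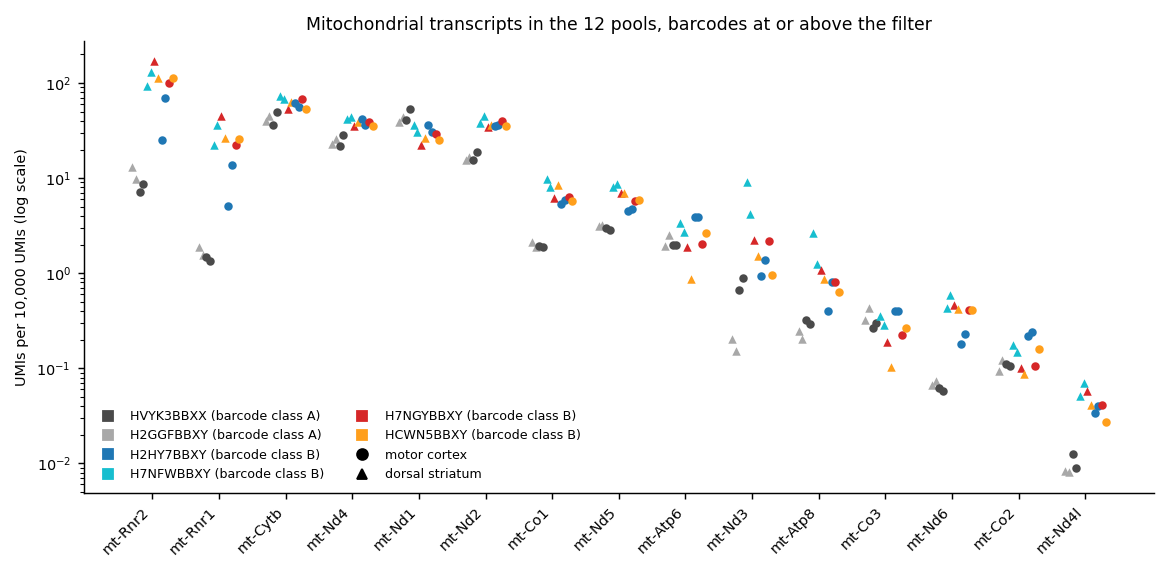
UMIs per 10000 UMIs (log scale) of the 13 mRNAs and 2 rRNAs in passing barcodes of each of the 12 pools, coloured by flow cell, with the marker giving the region. The class A pools lie lowest for mt-Rnr1, mt-Rnr2 and mt-Co1 and highest for mt-Nd1.

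mt-Nd1, a core subunit of complex I, went the other way from the rRNAs. Its level was 40.6 and 53.6 UMIs per 1e4 UMIs in the class A pools of motor cortex and 35.9, 30.7, 29.3 and 25.3 in the class B pools. In dorsal striatum it was 38.9 and 44.1 in class A and 36.5, 30.9, 22.5 and 26.2 in class B. Every class A pool was thus above every class B pool of its region. Over all features by cell class, this held for 15.7% in motor cortex and 22.2% in dorsal striatum. The contrast with mt-Rnr2 is plain in the same pools: 7.17 and 8.58 UMIs per 1e4 in class A and 25.1, 68.9, 101 and 112 in class B in motor cortex.

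Internal runs of A are shown for these 2 transcripts and mt-Rnr1, since oligo-dT can also anneal to such runs. Capitals mark the longest run, which was 7 bases in mt-Rnr2, 5 in mt-Rnr1 and 6 in mt-Nd1, where it lies 82 bases from the end. Such runs were not particular to them. The longest was 8 bases in mt-Nd2, 7 in mt-Co1, mt-Nd4 and mt-Nd5, and 5 in mt-Cytb. Whether priming at any of these runs differed between classes was not tested.
mt-Rnr2, chrM:1463-1519: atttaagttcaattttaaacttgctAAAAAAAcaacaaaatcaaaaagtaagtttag
mt-Rnr1, chrM:715-769: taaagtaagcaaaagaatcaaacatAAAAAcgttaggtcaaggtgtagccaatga
mt-Nd1, chrM:3595-3650: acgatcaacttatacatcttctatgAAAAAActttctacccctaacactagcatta

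Cells were clustered without the mt- features and grouped into 11 classes in motor cortex and 15 in dorsal striatum. Most classes were named by markers of known cell types. The clusters of dorsal striatum led by Calb2, by Enpp6, and by Vsnl1 and Otof did not meet the naming rule and were kept as unnamed classes. Within each of the 11 and 15 classes, class B was compared with class A in edgeR fits with stage as a covariate. The class A pools of a region are all on 1 flow cell, so the p-values do not measure spread between class A flow cells. In dorsal striatum 121 of 205 mitochondrial tests were higher in class B and 11 lower, against 12.7% higher and 14.2% lower (26.9% in either direction) of all features tested. In motor cortex 38 of 148 were higher and 8 lower, against 4.4% and 5.81% (10.2% in either direction). Without late 1 or late 2 the motor cortex calls numbered 22 and 20 in place of 46.

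The rRNAs were called higher in most classes. mt-Rnr2 was higher in 15 of 15 classes of dorsal striatum (median log2 difference 3.02) and 9 of 11 of motor cortex (2.88), and mt-Rnr1 in 15 of 15 (3.92) and 8 of 11 (3.06). mt-Co1 was higher in 15 of 15 classes (2.07) and 9 of 11 (1.31). mt-Nd2, mt-Nd5 and mt-Nd6 were higher in 12, 13 and 12 classes of dorsal striatum (medians 0.99, 0.96 and 2.64) and in 3, 2 and 5 of motor cortex (0.58, 0.60 and 2.13). mt-Nd1 was lower in 5 of 15 classes and in 5 of 11 (medians -0.60 and -1.05), and its difference was below 0 in all 26. mt-Nd4 and mt-Cytb, the steadiest of the abundant mRNAs, were higher in 4 classes each of dorsal striatum (0.50 and 0.49) and called in none of motor cortex (0.19 and 0.12).

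mt-Nd3 differed between the regions in this respect. In dorsal striatum it had 0.205 and 0.154 UMIs per 1e4 in the class A pools and 9.17, 4.22, 2.23 and 1.51 in class B, and was higher in 15 of 15 classes (median log2 4.46). In motor cortex it had 0.664 and 0.895 in class A and 0.938, 1.38, 2.19 and 0.964 in class B, and was higher in 0 of 11 classes and lower in 2 (median -0.08). The 2 class A pools of dorsal striatum were therefore the only pools with under 0.5 UMIs per 1e4, and both are on the flow cell H2GGFBBXY. mt-Atp8 was higher in 14 of 15 classes of dorsal striatum (2.72) and in 1 of 10 of motor cortex (0.55). Without late 1 or late 2 its median in motor cortex was -0.15 or -0.13. The difference between the regions in these contrasts was not tested. mt-Atp6 and mt-Co3 had medians of -0.48 and -1.32 in dorsal striatum, with 1 and 5 classes called lower. The late 2 pool had 0.869 UMIs per 1e4 of mt-Atp6 there, against 1.87 to 3.41 in the other 5 pools, and without either late pool the mt-Atp6 median was 0.58 or 0.61.

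Other RNAs that are not mitochondrial moved with the barcode class as well. Gm42418, a gauge of cytosolic rRNA, was 17.1-fold higher in class B in motor cortex and 25.5-fold in dorsal striatum (median over classes), with 4.22-fold between the control pools and 65.0-fold between the late pools of motor cortex, and 17.3-fold and 37.8-fold in dorsal striatum. CT010467.1, another rRNA feature, was 45.1-fold higher in dorsal striatum over 8 classes. In motor cortex it was at 0.495-fold between the control pools and 58.9-fold between the late pools, so that its direction differed between these pairs. Lars2, a nuclear gene for a mitochondrial tRNA synthetase whose counts are often taken as a gauge of rRNA, was 10.2-fold and 8.49-fold higher, with 3.08-fold and 34.0-fold between the control and late pools of motor cortex and 7.14-fold and 11.6-fold in dorsal striatum. Malat1, a nuclear long noncoding RNA, was at 0.99-fold and 1.93-fold. Their part in the mitochondrial differences was not tested.

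Nuclear genes of the same complexes were called lower in class B far more often than higher. Of 535 tests of 37 nuclear complex I genes in dorsal striatum, 229 were lower in class B and 4 higher (median log2 -0.56, against 0.03 over all features). Of 399 in motor cortex, 108 were lower and 1 higher (-0.68 against 0.02). For 35 nuclear genes of complexes III, IV and V the counts were 222 lower and 2 higher of 511 in dorsal striatum (-0.51), and 137 lower and 0 higher of 378 in motor cortex (-0.81). Ndufb10 was called lower in 10 of 15 classes of dorsal striatum and Atp5j in 14 of 15. Of 28 genes for the expression of mitochondrial DNA, Lrpprc, which stabilises mitochondrial mRNAs, was higher in 7 of 10 classes of dorsal striatum (median log2 1.12), and its partner Slirp was lower in 11 of 13 (-0.95). The list as a whole gave 11 higher and 35 lower of 248 tests there (14.1% lower, against 14.2% of all features), and 4 higher and 11 lower of 162 in motor cortex (6.79% against 5.81%). Of 16 genes for dissociation and heat shock, 89 of 239 tests were higher (37.2%, against 12.7% of all features) and 18 lower in dorsal striatum, and 39 of 172 higher (22.7%, against 4.4%) and 7 lower in motor cortex. Hspa1b, an inducible chaperone, was higher in 13 of 15 classes and 8 of 9. Of 12 genes for hypoxia and glycolysis, 18 tests were higher and 27 lower of 135 in dorsal striatum (13.3% and 20%, against 12.7% and 14.2% of all features), and 6 and 8 of 97 in motor cortex (6.19% and 8.25%, against 4.4% and 5.81%).

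The sum of squares of the log2 share over pools and classes was split into a part for cell class, a part for flow cell, and the rest. For the total share, cell class took 40.9% and flow cell 49.8% in motor cortex, and 21.4% and 74.1% in dorsal striatum. For the rRNAs the split was 23.1% and 68.4%, and 9.51% and 86.8%. For the mRNAs it was 82.6% and 4.17%, and 65.1% and 26.5%. Differences between cell types thus took the larger part of the mRNA share, and differences between flow cells the larger part of the rRNA share. For the rRNA share, the barcode class took 57.9% in motor cortex and 85.1% in dorsal striatum. Flow cells within a barcode class took 10.5% and 1.71%.

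Single transcripts ran from mostly cell class to mostly flow cell. Cell class took 77.5% for mt-Nd4 and 75.6% for mt-Cytb in motor cortex, and 64.6% and 63.0% in dorsal striatum. For mt-Co1 flow cell took 69.6% and 79.9%, and for mt-Rnr1 77% and 92.2%. This split left out mt-Co2, mt-Co3, mt-Nd4l and mt-Nd6 in both regions, and mt-Nd3 in dorsal striatum. Among the transcripts split, flow cells of the same barcode class differed most for mt-Atp6. They took 36.8% in motor cortex and 49.6% in dorsal striatum, and the barcode class itself 3.23% and 5.43%. Over the 12 pools mt-Nd1 had correlations of -0.88 with both mt-Rnr1 and mt-Rnr2, which describes pools that share flow cells.

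Smooth muscle-like cells, the contractile cells of arteries, had the highest mRNA share in every pool of both regions. It was 2.72% ± 0.21 (SD, n = 6 pools, 1193 cells) in motor cortex, with 2.38% and 2.75% in class A and 2.89%, 2.96%, 2.6% and 2.75% in class B. In dorsal striatum it was 3.03% ± 0.58 (1151 cells). All 14 mRNAs and rRNAs tested were higher in these cells than the mean of the other classes, in each region. The count of all features higher in this class is not given here. The log2 differences ran from 0.65 for mt-Rnr2 to 1.40 for mt-Nd3 in motor cortex and from 0.79 for mt-Rnr1 to 1.42 for mt-Co2 in dorsal striatum. Over all classes 54 of 154 tests were higher and 64 lower in motor cortex, against 32.3% higher and 25.4% lower (57.8% in either direction) of all features. In dorsal striatum 69 of 210 were higher and 69 lower, against 32.1% and 21.5% (53.6%). The classes were built from the other genes of the same cells.

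These fits use TMM factors, which set the bulk of features of 2 classes level with each other, so that a log2 difference can depart from the ratio of the shares. With library sizes alone, which keep the scale of the shares, 40 tests were higher and 43 lower in motor cortex, against 34.7% and 26.7% of all features (61.4% in either direction), and 63 and 71 in dorsal striatum, against 33.5% and 21.9% (55.5%). Smooth muscle-like cells had 14 of 14 higher under this scaling too, from 0.43 (mt-Rnr2) to 1.17 (mt-Nd3) in motor cortex and from 0.56 (mt-Rnr1) to 1.19 (mt-Co2) in dorsal striatum. For library sizes alone, counts of all features called in single classes are not given here or below. Called in opposite directions by the 2 scalings were 5 transcripts of microglia-like cells in dorsal striatum and mt-Cytb of perivascular macrophage-like cells in motor cortex (0.31 with TMM factors, -0.22 with library sizes alone).

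**Figure D2:**
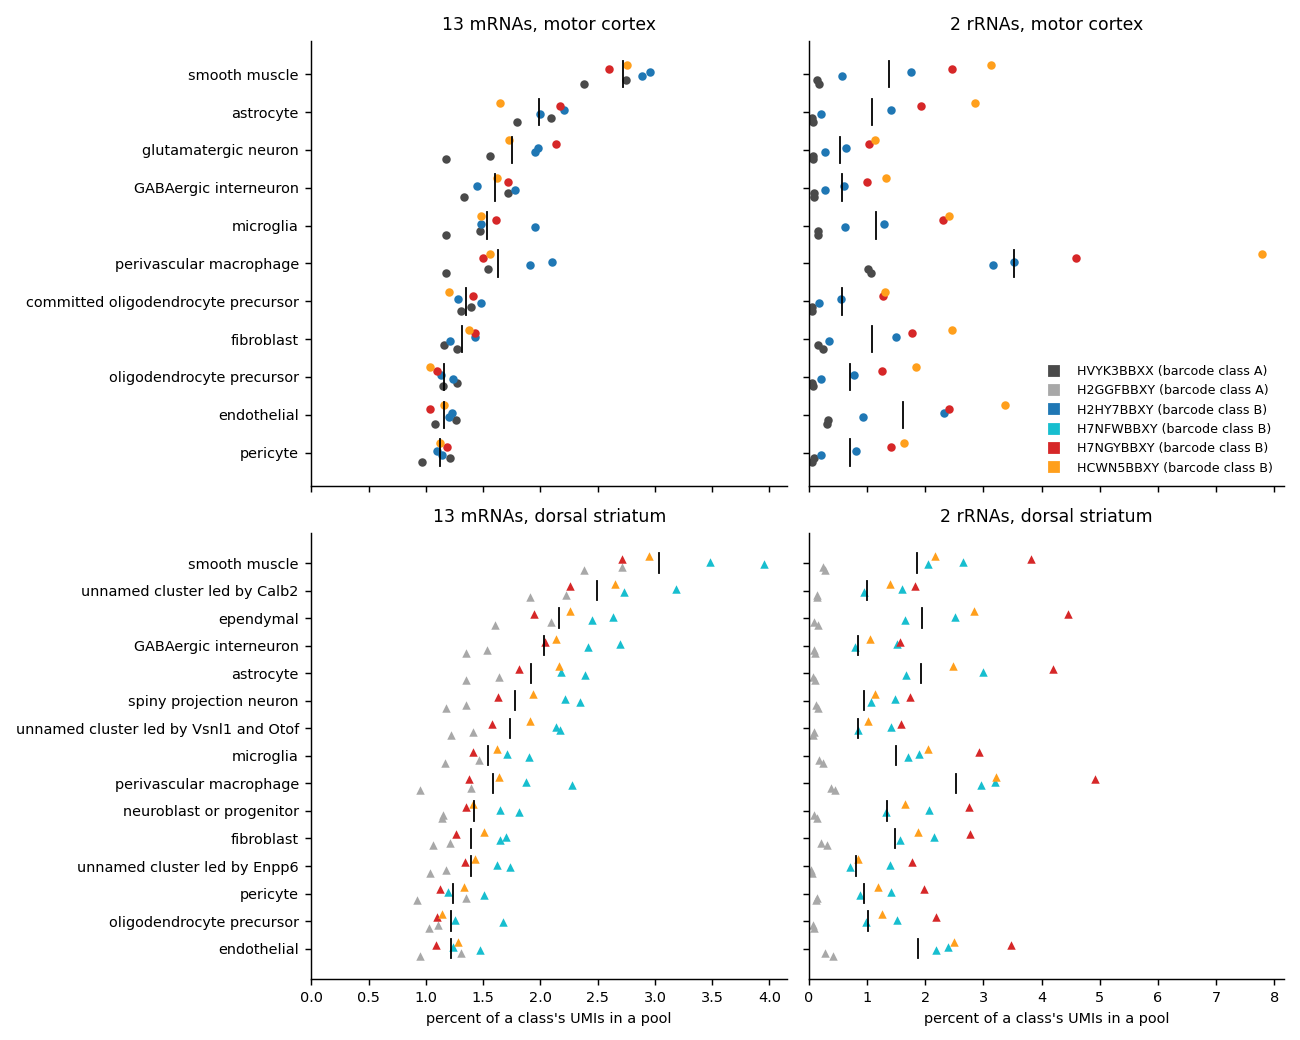
Percent of the UMIs of each cell class taken by the 13 mRNAs and by the 2 rRNAs, 1 point for each pool with at least 20 cells of the class, coloured by flow cell, and a bar at the mean over pools. Smooth muscle leads the mRNA panels and perivascular macrophages lead the rRNA panels, and the class A pools lie below the class B pools in the rRNA panels.

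Microglia-like cells, the resident macrophages of the brain, moved most between the scalings, by a median of -0.81 in motor cortex and -0.69 in dorsal striatum on the log2 scale. With TMM factors 14 of 14 transcripts were higher in motor cortex and 11 of 14 in dorsal striatum, and 0 were lower, against 5147 of 12780 and 4766 of 14420 features higher. With library sizes alone 3 were higher and 0 lower in motor cortex, and 3 higher and 7 lower in dorsal striatum. The 3 higher ones were mt-Nd1, mt-Nd3 and mt-Rnr2 in both regions, at 0.22, 0.36 and 0.35 in motor cortex and 0.19, 0.25 and 0.40 in dorsal striatum. mt-Cytb was called higher at 0.38 in dorsal striatum with TMM factors and lower at -0.31 with library sizes alone.

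Oligodendrocyte precursor-like cells had all 14 lower in both regions with TMM factors, with mt-Nd3 at -1.31 and -1.13 and mt-Nd5 at -1.30 and -1.22, and 10 and 11 lower with library sizes alone (mt-Nd3 -0.77 and -0.79). Pericyte-like cells had 11 of 14 lower in both regions, and 9 and 11 with library sizes alone. Fibroblast-like cells had 8 of 14 lower in both, and 3 and 5 with library sizes alone, where mt-Rnr2 was higher in dorsal striatum (0.43). The committed oligodendrocyte precursor-like cells of motor cortex had 13 of 14 lower, and 7 with library sizes alone, and the cluster of dorsal striatum led by Enpp6 had 12 and 11. With TMM factors the features lower out of 12780 in motor cortex and 14420 in dorsal striatum were 4109 and 2807 in oligodendrocyte precursor-like cells, 1670 and 1948 in pericyte-like cells, and 1861 and 1860 in fibroblast-like cells. They were 3895 in the committed precursor-like cells and 3349 in the cluster led by Enpp6.

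The mRNA share placed astrocyte-like cells second in motor cortex (1.98% ± 0.22) and the cluster led by Calb2 second in dorsal striatum (2.49% ± 0.45), the latter above the ependymal-like cells next to it in 6 of 6 pools. Endothelial-like, pericyte-like and oligodendrocyte precursor-like cells were lowest. They had 1.16% ± 0.09, 1.12% ± 0.09 and 1.15% ± 0.09 in motor cortex and 1.22% ± 0.18, 1.24% ± 0.21 and 1.22% ± 0.24 in dorsal striatum. Endothelial-like cells were above pericyte-like cells in 5 of 6 pools of motor cortex, by less than their spread, and the other neighbours among these 3 were in 1 order in 3 or 4 of 6 pools. Microglia-like and perivascular macrophage-like cells, in the middle of the order, were each higher in 3 of 6 pools in both regions.

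The order by rRNA was another one. Perivascular macrophage-like cells, which line vessels outside the brain tissue proper, were the highest in every pool of both regions, with 3.53% ± 2.52 (609 cells) in motor cortex and 2.52% ± 1.77 (288 cells) in dorsal striatum. The pools of motor cortex gave 1.07% and 1.02% in class A and 3.17%, 3.52%, 4.6% and 7.78% in class B. mt-Rnr2 was 3.32 higher on the log2 scale in these cells in motor cortex and 1.45 higher in dorsal striatum. Endothelial-like cells had 1.62% ± 1.27 in motor cortex, the second highest mean, and 1.87% ± 1.26 in dorsal striatum, where the means of ependymal-like cells (1.95%) and astrocyte-like cells (1.92%) were higher. Their mRNA share was among the lowest, and their mt-Nd4 was lower than the mean of the other classes (-0.29 and -0.44, and -0.62 and -0.64 with library sizes alone). In neurons, mt-Rnr2 was lower and mt-Nd1 higher under both scalings. With TMM factors mt-Rnr2 was lower in glutamatergic neuron-like cells (-1.28), in GABAergic interneuron-like cells (-1.11 in motor cortex, -0.67 in dorsal striatum) and in spiny projection neuron-like cells (-0.38), while mt-Nd1 was higher in each (0.32, 0.25, 0.85 and 0.22). Of 14 transcripts, 2 were higher and 6 lower in glutamatergic neuron-like cells (6 and 2 with library sizes alone) and 1 higher and 8 lower in GABAergic interneuron-like cells of motor cortex (1 and 3). In dorsal striatum 5 were higher and 2 lower in GABAergic interneuron-like cells and 6 higher and 1 lower in spiny projection neuron-like cells, with the same counts under both scalings. Of all 14420 features tested there, 6078 were higher in the former and 6793 in the latter, so that the shares of higher transcripts did not exceed those of all features. Of 12780 features in motor cortex 4248 were lower in glutamatergic neuron-like cells and 4140 in GABAergic interneuron-like cells.

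By the total share, perivascular macrophage-like cells (5.16% ± 2.60) and smooth muscle-like cells (4.09% ± 1.32) led in motor cortex, the former higher in 4 of 6 pools. Smooth muscle-like cells (4.90% ± 1.69) led in 6 of 6 pools over the ependymal-like cells (4.11% ± 1.82), which line the ventricles, in dorsal striatum. Pericyte-like cells were lowest in motor cortex (1.82% ± 0.72), and pericyte-like cells and the cluster led by Enpp6 were lowest in dorsal striatum (both 2.19%). Median depth of the classes ran from 1384 to 7470 UMIs per cell, and neurons were the deepest. Fewer molecules of other RNAs and more mitochondrial RNA per cell give the same share and cannot be told apart here.

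Mature red blood cells lack mitochondria, and clusters of erythrocyte-like cells led by globin genes (150 cells in motor cortex and 35 in dorsal striatum, too few in most pools for the fits) give the level in such barcodes. In motor cortex 1.14%, 1.32%, 1.77%, 3.00%, 0.909% and 2.34% of their UMIs were mitochondrial (control 1, control 2, early 1, early 2, late 1, late 2), on 10 to 58 cells a pool. Their rRNA share was 0.086%, 0.251%, 0.892%, 1.2%, 0.085% and 1.46%, close to that of all passing barcodes in the same pools, and it was again low in both class A pools. Their mRNA share was 1.06%, 1.07%, 0.882%, 1.80%, 0.824% and 0.885%, so that the lowest classes by mRNA share were within its range. Whether these UMIs were free RNA or RNA of immature red cells, which still hold mitochondria, was not tested, and neither was their part in the levels of the other classes.

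Across the class means, the mRNAs varied with each other more closely than with the rRNAs by median correlation, though the ranges overlapped. Over 11 classes of motor cortex, the pairs of the 6 most abundant mRNAs had a median correlation of 0.83 (0.52 to 0.94). Pairs of an mRNA and an rRNA had 0.23 (-0.10 to 0.55). Over 15 classes of dorsal striatum these were 0.76 (0.27 to 0.95) and 0.14 (-0.14 to 0.49). The 2 rRNAs had 0.98 and 0.92. These values describe classes that share pools.

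Nuclear genes of complex I are given beside the mRNA shares of the same classes, with no test of the 2 orders. These genes took part in the clustering, so their values, from fits with TMM factors, are given as description. In GABAergic interneuron-like cells of dorsal striatum the median log2 difference of 37 nuclear complex I genes from the other classes was 1.07, against 0.13 over all features, and in spiny projection neuron-like cells 0.65 against 0.18. Glutamatergic neuron-like cells had 0.63 against 0.06. Smooth muscle-like cells, highest by mRNA share, had 0.50 in motor cortex and 0.37 in dorsal striatum, and the cluster led by Calb2, second by mRNA share in dorsal striatum, had 0.76, against 0.01 over all features, with 36 of 37 genes higher, against 4899 of 14420 features. Ependymal-like cells, next after the cluster led by Calb2 by mRNA share, had -0.23, against 0.03 over all features. Endothelial-like cells (-0.41 and -0.64) and oligodendrocyte precursor-like cells (-0.27 and -0.19), among the lowest by mRNA share, were below 0. Pericyte-like cells, as low by mRNA share, had -0.03 in motor cortex, against 0.07 over all features, with 4 of 37 genes higher and 7 lower. In dorsal striatum they had -0.30, against -0.04 over all features, with 2 higher and 22 lower. The counts of all features lower in these cells are given above. Microglia-like cells had -0.28 and -0.55. Astrocyte-like cells, second by mRNA share in motor cortex, had 0.09 and -0.08. Their list for the expression of mitochondrial DNA had medians of 0.57 and 0.53, against 0.00 and 0.10 over all features, with 17 of 21 and 14 of 25 genes higher, against 4528 of 12780 and 5326 of 14420 features.

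Motor cortex and dorsal striatum were compared in 9 classes found in both, over all 12 pools with stage and barcode class as covariates. Of 118 mitochondrial tests 12 were lower in motor cortex and 0 higher, against 6.25% lower and 5.34% higher of all features (11.6% in either direction). With a pool left out the calls numbered 8 to 20, and with no filter on low counts 27. GABAergic interneuron-like cells gave 8 of the 12, and of all 12736 features tested in them 2316 were lower and 2053 higher (34.3% in either direction). The class held different clusters in the 2 regions. In motor cortex these were led by Vip and Tac2 (1970 cells), Npy and Reln (1370), Sst and Pvalb (681) and Sst and Nos1 (139), and in dorsal striatum by Sst, Npy and Nos1 (903) and by Pthlh and Pvalb among others (590), so that region and interneuron subtype cannot be told apart. Astrocyte-like cells had 30.3% of features called, and the other 7 classes 0.64% to 5.23%. The make-up of astrocyte-like cells differed too. In dorsal striatum they held a cluster of 2123 cells and another of 1238 cells with Gfap and Thbs4 among its leading genes. The cluster of motor cortex (3022 cells) did not have these genes among its leading ones. In GABAergic interneuron-like cells mt-Nd5, a complex I subunit, had 3.15, 3.92, 3.53, 4.85, 3.23 and 5.34 UMIs per 1e4 in motor cortex (control 1, control 2, early 1, early 2, late 1, late 2) and 3.39, 8.07, 10.5, 8.54, 3.61 and 7.74 in dorsal striatum. The class A pools of both regions were close, and the 4 class B pools of dorsal striatum were above all pools of motor cortex. The log2 difference was -0.85 (SE 0.14, adjusted p = 7.6e-05). mt-Co1 (-0.70), mt-Nd2 (-0.57), mt-Nd1 (-0.49), mt-Nd4 (-0.40), mt-Atp8 (-1.02), mt-Nd6 (-0.90) and mt-Rnr2 (-0.59) were the others. The remaining 4 calls were mt-Nd5 and mt-Nd6 in astrocyte-like cells (-0.49 and -1.31), mt-Co1 in oligodendrocyte precursor-like cells (-0.50) and mt-Nd6 in smooth muscle-like cells (-0.80).

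The flow cells H7NGYBBXY and HCWN5BBXY carried both regions, and they gave a value within the batch. For mt-Nd5 in GABAergic interneuron-like cells the ratio of motor cortex to dorsal striatum was 0.57 on H7NGYBBXY (early pools) and 0.689 on HCWN5BBXY (late pools), and for mt-Nd2 0.725 and 0.735. For mt-Rnr2 it was 0.645 and 1.3, so this call did not keep its direction within both. In astrocyte-like cells mt-Nd6 was at 1.08 and 0.589. Whole classes of RNA reversed between the 2 flow cells. The rRNA share of motor cortex was 0.643 of that of dorsal striatum on H7NGYBBXY, below 1 in 9 of 9 classes, and 1.35 on HCWN5BBXY, above 1 in 9 of 9. The total was at 0.774 (0 of 9 above 1) and 1.14 (7 of 9), and the mRNA share above 1 in 6 of 9 classes (median 1.05) and in 0 of 9 (median 0.910). Each of these ratios rests on 1 pool of each region.

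**Figure D3:**
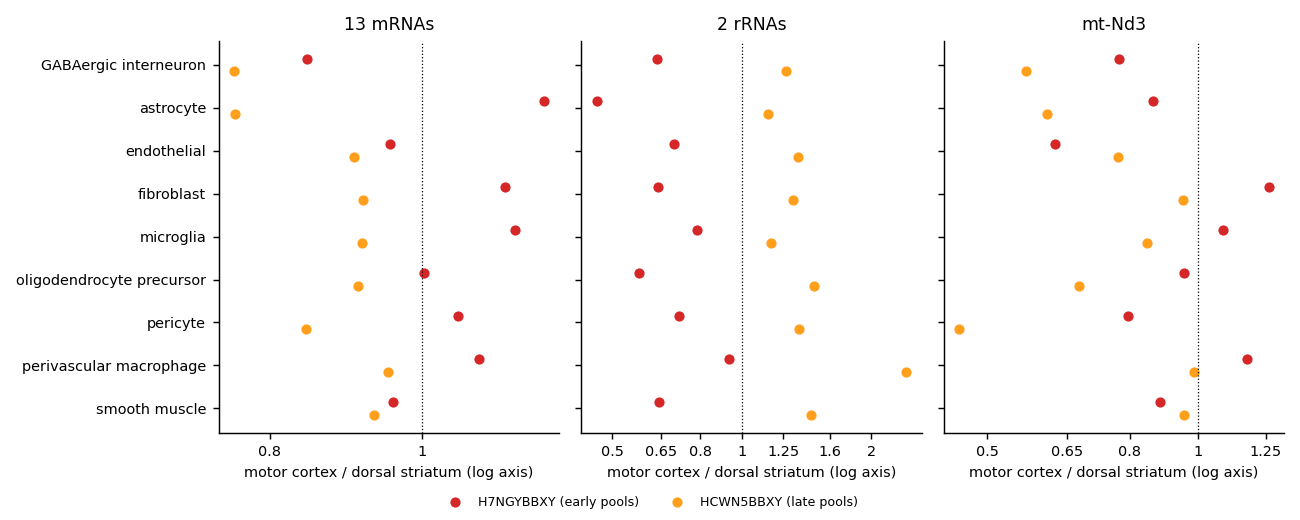
Ratio of motor cortex to dorsal striatum (log scale, dotted line at 1) for the mRNA share, the rRNA share and mt-Nd3 in the 9 shared classes within the 2 flow cells that carry both regions, early pools on H7NGYBBXY and late pools on HCWN5BBXY. The rRNA ratios lie on opposite sides of 1 on the 2 flow cells, with medians of 0.643 and 1.35.

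Training stages were compared within region with the barcode class as a covariate, which leaves 2 residual degrees of freedom in each class. In dorsal striatum early against control gave 2 higher and 6 lower of 205 tests, against 0.0178% higher and 0.0429% lower of all features (0.0607% in either direction). Late against control gave 0 higher and 10 lower, against 0.02% and 0.0326% (0.0526%). In motor cortex early against control gave 0 of 148 in edgeR (0.00623% higher and 0.00104% lower of all features, 0.00726% in either direction; 23 had an unadjusted p under 0.05, and DESeq2 gave 1), and late against control gave 1 higher (0.0125% higher and 0.0228% lower, 0.0353% in either direction). Late against early gave 0 in both regions in edgeR. Of all features 0.0155% were higher and 0.0148% lower in dorsal striatum (0.0304%), and 0.00104% higher and 0.00415% lower in motor cortex (0.00519%). There 37 and 12 tests had an unadjusted p under 0.05, and DESeq2 gave 1 in dorsal striatum and 0 in motor cortex. The 3 comparisons of a region share pools. Of the class B pools of a region, only early 1 shares a flow cell with control 2. Flow cell was not in the fit, so stage and flow cell cannot be told apart for early 2 and late 2.

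The calls in dorsal striatum fell on 3 transcripts. Of the 16 lower calls, 9 were mt-Nd3 and 7 mt-Atp8, and both higher calls were mt-Rnr1. In oligodendrocyte precursor-like cells mt-Nd3 had 0.146 (control 1) and 5.09 (control 2) UMIs per 1e4, 2.04 and 1.09 in the early pools, and 0.038 and 0.715 in the late pools. Among class B pools control 2 was the highest, and the control and late pools of class A were both under 0.15. The log2 difference of early from control was -1.72 (SE 0.22, adjusted p = 7.1e-05) and that of late from control -2.78 (SE 0.27, adjusted p = 4.4e-07). mt-Atp8 in the same cells had 0.119 and 2.09 in control, 0.669 and 0.598 in early and 0.096 and 0.399 in late pools, with differences of -1.67 and -2.21. Early against control mt-Rnr1 was 1.03 higher. The single call in motor cortex was mt-Rnr1 in astrocyte-like cells, late against control, at 2.72 (SE 0.61, adjusted p = 0.030), with 0.908 and 3.46 UMIs per 1e4 in control and 0.898 and 68.6 in late pools. That value rests on late 2, which is on another flow cell than control 2. The late pool of class A did not exceed its control.

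These calls depended on single pools and settings. The shares of all features called in the fits with a pool left out are not given here, so the counts below show that dependence only. Without dorsal striatum control 2, late against control had 1 call in place of 10, and it also had 1 without late 2. Without control 1 or late 1 it had 34 and 36. Early against control had between 4 (without early 2) and 37 (without late 1) calls in place of 8. In motor cortex late against control had 0 calls without control 2 or late 2 and 15 without control 1 or late 1, and 12 and 10 without early 1 and early 2. Early against control there had 11, 7, 11 and 10 in place of 0 without control 1, early 1, late 1 and late 2. Late against early had between 4 (without early 1) and 22 (without late 1) calls in dorsal striatum in place of 0, and in motor cortex 1, 2, 1, 4 and 3 without control 1, control 2, early 2, late 1 and late 2. With DESeq2 the calls of late against control in dorsal striatum numbered 1, and with no barcode class in the fit 0.

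Within a flow cell, trained pools could be set against controls with 1 pool each. The total share was 1.33 times control in early 1 of motor cortex (H2HY7BBXY), 1.17 in early 1 of dorsal striatum (H7NFWBBXY), 1.14 in late 1 of motor cortex (HVYK3BBXX) and 1.15 in late 1 of dorsal striatum (H2GGFBBXY), as medians over classes. The rRNA share was at 3.06 and 1.53 in the early pools and at 0.950 and 0.805 in the late pools. The mRNA share was at 1.01, 0.913, 1.17 and 1.16. mt-Nd3 was at 1.57 in early 1 of motor cortex, above control in 11 of 11 classes, and at 0.470 in early 1 of dorsal striatum, below control in 15 of 15. In the late pools it was at 0.995 in motor cortex, above control in 5 of 11 classes, and at 0.780 in dorsal striatum, above control in 2 of 13.

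The hemispheres of trained mice were compared within pools. The total share contralateral to the reaching limb over that ipsilateral had a median of 1.02 in motor cortex (0.940 to 1.13 over 4 pools) and 0.991 in dorsal striatum (0.945 to 1.04). With the pool as a block edgeR gave 0 of 138 calls in motor cortex (0.0325% higher and 0.0287% lower of all features, 0.0612% in either direction; 9 with an unadjusted p under 0.05, 0 in DESeq2, and 2 calls without early 2) and 1 of 190 in dorsal striatum (0.0117% higher and 0.0135% lower, 0.0253% in either direction). The call was mt-Nd3 in spiny projection neuron-like cells, the output neurons of the striatum. It had 4.33, 1.79, 0.147 and 1.43 UMIs per 1e4 on the contralateral side and 4.87, 2.76, 0.194 and 1.88 on the ipsilateral side (early 1, early 2, late 1, late 2). It was lower contralaterally in all 4 pools, by -0.39 on the log2 scale (SE 0.07, adjusted p = 0.0039), and the call was lost without early 2 or late 1.

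Barcodes under the filter had a higher mitochondrial share in 11 of 12 pools. It was 3.13% over all of them, against 2.65% in passing barcodes. The ratio of the share below to the share passing had a median of 1.15 over the 4 class A pools (0.993 to 1.29, above 1 in 3) and of 1.6 over the 8 class B pools (1.23 to 2.65, above 1 in 8). The rRNA share had the highest ratios, with 1.65 in class A and 2.11 in class B, and the mRNA share lower ones, with 1.10 and 1.22. In early 1 of dorsal striatum the total was 3.81% in passing barcodes and 10.1% below, the widest gap of the 12 pools, and in late 1 of motor cortex it was 1.69% and 1.67%.

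**Figure D4:**
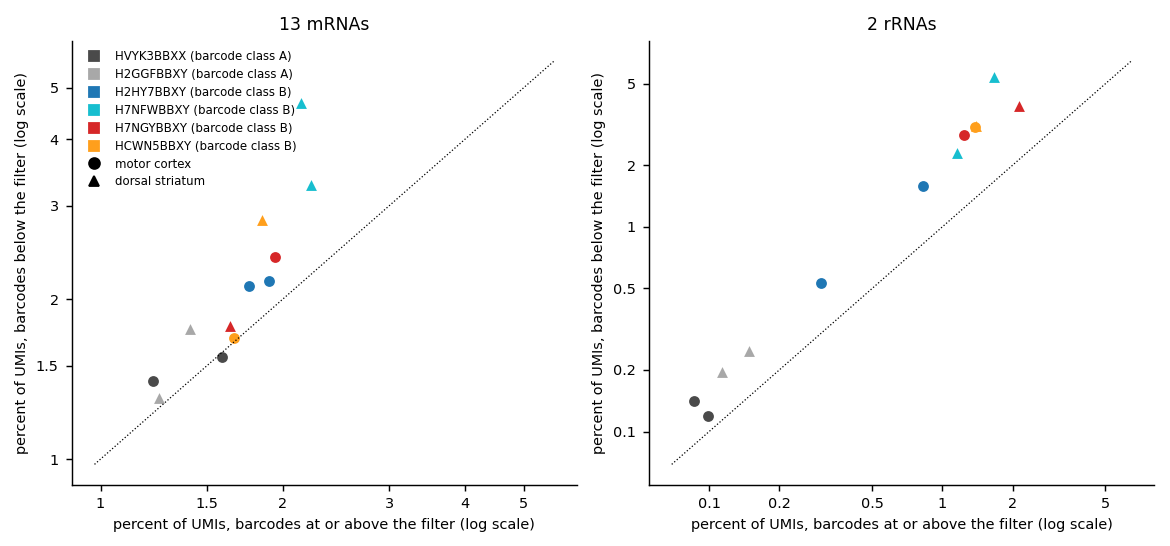
Percent of UMIs taken by the 13 mRNAs and by the 2 rRNAs in barcodes below the filter (vertical, log scale) against barcodes at or above it (horizontal, log scale), 1 point for each of the 12 pools, coloured by flow cell, with a dotted line of equality. All points of the rRNA panel lie above that line.

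In an edgeR fit over the 12 pools with the pool as a block, 15 of 17 tested mitochondrial features were higher in the barcodes below and 0 lower, against 27% higher and 33.6% lower of all features (60.6% in either direction). The 15 were all mRNAs and rRNAs. mt-Rnr2 had a mean of 157 UMIs per 1e4 below and 71.0 passing, a log2 difference of 1.36 (SE 0.12, adjusted p = 2.4e-08). mt-Rnr1 was 1.22 higher (SE 0.14), mt-Cytb 0.78 and mt-Nd1 0.60. With library sizes alone 9 of 17 were higher and 0 lower, against 15.9% and 45.3% of all features (61.2% in either direction), and the differences were 0.96, 0.81, 0.39 and 0.20, of which that of mt-Nd1 was not called (adjusted p = 0.19). In shares, mt-Nd1 had a median ratio of below to passing of 1.08 over the 12 pools, above 1 in 8, and mt-Cytb 1.26, above 1 in 12. All 37 nuclear complex I genes were lower below (median log2 -0.79, against -0.08 over all features), and so were 33 of 35 nuclear genes of complexes III, IV and V (-0.66). Malat1 was 1.70 times the passing level in class A and 0.756 in class B, and Gm42418 1.06 and 2.40 times. The part of cell damage, of cell type and of free RNA in these differences was not tested, since barcodes below the filter were given no class.

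Shares over 20%, a limit often used to remove cells, were rare. They were found in 258 of 103973 passing barcodes (0.248%) and in 592 of 23928 below (2.47%), and 49 and 722 barcodes had no mitochondrial UMI. In dorsal striatum class A, the median cell of every class had between 1.02% and 2.72%, and in class B between 2.51% and 5.77%. A single limit would thus cut at different places in the 2 barcode classes. Among perivascular macrophage-like cells of motor cortex in class B, the upper 5% of cells began at 16.8%, against 6.70% in class A.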

How the data were processed

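Single-cell suspensions of motor cortex and dorsal striatum were made with papain and a dead cell removal kit and sequenced as 10x 3' libraries, per the labels' protocols. The deposited matrices hold raw UMI counts per feature and barcode; the authors made them with Cell Ranger 3.1.0 on GRCm38 (mm10) per the submitters' processing notes, while, per the file headers, the matrices were written by version 3.0.2. The annotation release, the calling of cells and the treatment of reads with several matches are not given in the sources used here. Libraries held 5260446 to 30470621 UMIs.

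The members and gene lists were chosen with earlier results of these data known. Passing barcodes had at least 1000 UMIs and 500 genes. Scrublet, at 0.8% per 1000 barcodes, removed 5112 doublets. The remaining 98861 cells were clustered by region with scanpy 1.11.5 (2000 variable genes, 40 components, 20 neighbours, Leiden resolution 1.5), leaving out mt-, sex-linked and reporter features. A cluster was named from at least 3 fixed markers detected in 20% of its cells at 2 times the level elsewhere. Names are rebuilt, and 1 cluster of motor cortex and 6 of dorsal striatum stayed unnamed. Classes needed 20 cells in a pool.

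Counts were summed by pool and class and tested with edgeR 4.0.16 (quasi-likelihood F test, TMM, filterByExpr) in R 4.3.3, with Benjamini-Hochberg adjustment over all features of a class and comparison at 0.05. Stage fits had the barcode class as covariate, and fits of barcode class against barcode class had stage; fits within pools had the pool as block. SE is the absolute log2 difference over the square root of F. Adjusted p-values come from these fits. The labels do not pair the pools, whose replicate numbers follow accession order. In fits of stage, barcode class and region, p-values measure the spread between pools. In fits with the pool as block they measure what is left once pool differences are removed. The class fits estimate this over all classes together. The stage fit, late against control, was tried on simulated counts for glutamatergic neuron-like and spiny projection neuron-like cells. No difference between barcode classes or flow cells was simulated, and the other fits were not tried in this way. DESeq2 1.42.0, other filters, scalings and left-out pools were alternatives; library sizes alone, with no TMM factors, were added after seeing the data. Named were the mRNAs and rRNAs, the 5 tRNAs with most UMIs, Malat1, Lars2, Gm42418 and CT010467.1, and from the other lists the 2 genes with the smallest p in each direction; pseudogenes were named for their sequence. Sequences were read from GENCODE M21 transcripts.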

Additional observations from a re-analysis of the deposited data

Results flagged for a closer look

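Transcripts whose ratio lay on opposite sides of 1 in every class of the groups compared are given here. None of these differences was tested, and each ratio rests on 1 pool against 1 pool of the same flow cell. mt-Atp8 in early against control pools had a median ratio over classes of 2.17 in motor cortex (1.59 to 4.11) and of 0.474 in dorsal striatum (0.268 to 0.686). mt-Nd3 in the same pools had 1.57 (1.1 to 4.21) and 0.470 (0.368 to 0.806).

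For motor cortex over dorsal striatum, mt-Cytb had 1.12 in the early pools (1.03 to 1.34) and 0.856 in the late pools (0.678 to 0.957). mt-Rnr1 had 0.590 and 1.45, mt-Rnr2 had 0.663 and 1.34, and the rRNA share had 0.643 and 1.35. Stage and flow cell cannot be told apart in these ratios.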

How the results depend on the processing

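With the 13 coding features only, the mean over pools of the median share over classes was 1.48% in place of 2.50% in motor cortex, and 1.61% in place of 2.92% in dorsal striatum. Class B over class A was 1.06-fold in place of 1.67-fold and 1.39-fold in place of 2.32-fold, with the 13 coding features or without the rRNAs. Leaving out a control or late pool drops its stage from this fold. The fold was then that of the other stage alone. It was 1.36 between the control pools and 2.12 between the late pools in motor cortex, and 2.34 and 2.09 in dorsal striatum. Calls between barcode classes numbered 132 in dorsal striatum (114 to 139 with a pool left out) and 46 in motor cortex (20 to 54, and 30 with a stricter cell filter). Calls below against passing numbered 15 (15 to 16 with a pool left out), and 9 with library sizes alone in place of TMM factors, an alternative chosen after seeing the data. Class calls from 122 to 138 and from 109 to 116, hemisphere calls from 0 to 1 in dorsal striatum (0 with stage and barcode class in place of the pool block) and from 0 to 2 in motor cortex, and region calls from 8 to 20 in place of 12 (27 with no filter on low counts).

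Stage calls in dorsal striatum, early against control, were 8 in the reported fit, 5 with DESeq2, 5 with doublets kept, 0 with no barcode class covariate, 26 with no filter on low counts, 5 with a stricter cell filter, and 4 to 37 with a pool left out. Late against control had 10, 1 with DESeq2, 0 with no covariate, 28 with no filter and 1 to 36 with a pool left out. Late against early had 0, 1 with DESeq2, 15 with no filter and 4 to 22. In motor cortex, early against control had 0, 1 with DESeq2, 10 with no filter and 0 to 11. Late against control had 1, 0 with DESeq2, with doublets kept or with no covariate, 13 with no filter, 4 with a stricter cell filter and 0 to 15. Late against early had 0, 1 with no filter and 0 to 4. The causes were not tested, and the shares of all features called under these settings are not given here.

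With a replicate block in place of the barcode class, early pools had 4 calls against controls in dorsal striatum and 6 in motor cortex. Late pools had 0 in both against controls, and 5 and 0 against early pools. The replicate numbers follow accession order and pair nothing.

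Direction was reversed for mt-Atp6 in dorsal striatum (-0.48 in the reported fit, 0.58 without late 1, and -1.65 to 0.61 over pools left out), mt-Atp8 in motor cortex (0.55, and -0.15 to 0.94 over pools left out, below 0 without either late pool), mt-Co3 in motor cortex (-0.13, and -0.38 to 0.19, above 0 without either late pool) and mt-Nd3 in motor cortex (-0.08, and 0.012 with no filter). Over single transcripts and the total shares of single classes, 346 results stayed within the reported spread or call under other settings and 53 moved. With a pool left out these were 448 and 62. For the mean shares, folds and counts of calls above, 77 stayed and 33 moved, and with a pool left out 69 and 43. The 16 fits not run had too few cells or pools.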
